A study of Mus musculus with 20 samples.

Results

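The olfactory receptor genes described here are the 122 mouse Olfr symbols with at least 10 reads in a library labelled young medium spiny neurons (yMSN), of 1249 Olfr symbols in the tables and 34620 gene symbols in all. The yMSN reads chose these 122 members, so their yMSN levels are a description and carry no test. The series holds 6 polyA RNA libraries of microdissected brain tissue and 14 bisulfite samples, which were not analysed here. The RNA libraries comprise 1 of yMSN, 1 labelled as CA pyramidal neurons of the young hippocampus (yCA), 1 of striatal precursors (SP), 1 of hippocampal precursors (HP) and 2 of dorsal medium spiny neurons (dMSN 1 and dMSN 2), a cell type the labels spell medial spiny neurons. Every RNA sample is labelled as male, wild type, of strain C57BL/6. No age and no number of animals is given, and the tissue was dissected rather than sorted, so the names of the libraries stand for a region and not for a purified cell.

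Olfactory receptors are G protein-coupled receptors of the nose, and they form the largest gene family of the mouse genome. A mature olfactory sensory neuron transcribes essentially a single receptor gene from a single allele, so the many receptors of the family are spread over many neurons. Class I receptors resemble those of fish and largely sit together in the genome, and class II receptors make up the rest of the family. Some receptor genes are also known from tissues outside the nose.

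The libraries held between 31282185 reads assigned to genes in HP and 152347673 in dMSN 1, with 36969136 in yMSN. Levels below are CPM, read counts rescaled for depth after TMM scaling of the library totals. A count of 0 allows a level of up to 0.0690 CPM in yMSN and between 0.0249 CPM in dMSN 1 and 0.0861 CPM in HP elsewhere (3 reads per library, counting error only). Over 12 listed genes of medium spiny neurons the median level was 18.1 CPM in yMSN, against 19.3 CPM in yCA, 3.01 CPM in SP, 1.84 CPM in HP and 201 CPM in both dMSN libraries. Ppp1r1b, which encodes DARPP-32, stood at 19.1 CPM in yMSN, 26.1 CPM in yCA and 2520 ± 72.2 CPM in dMSN (SD, n = 2). The sex-linked genes went against some of the male labels. The female-specific Xist transcript had 21239 reads in yMSN, 29641 in yCA, 43205 in SP and 29856 in HP, against 4 in dMSN 1 and 0 in dMSN 2. On the Y chromosome, the sum of Ddx3y, Eif2s3y and Kdm5d was 2108 reads in yMSN, 0 in yCA, 0 in SP, 672 in HP, 8258 in dMSN 1 and 9348 in dMSN 2.

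Receptor transcripts of yMSN came from most of the gene family, mostly at a few reads each. At least 1 read fell on 946 of 1249 Olfr symbols in yMSN (75.7%), against 49 in yCA, 44 in SP, 39 in HP, 45 in dMSN 1 and 48 in dMSN 2. The dMSN libraries were the deepest. Thinned in expectation to the 31282185 reads of HP, the numbers were 914 in yMSN, 45.7 in yCA, 40.2 in SP, 39.0 in HP, 23.5 in dMSN 1 and 28.4 in dMSN 2. At this equal number of assigned reads, which leaves the TMM factors aside, yMSN still reached far more receptor symbols than any other library. At least 10 reads fell on 122 symbols in yMSN, 6 in yCA, 2 in SP, 4 in HP, 12 in dMSN 1 and 13 in dMSN 2. Summed over the family, the level was 128 CPM in yMSN, against 18.2 CPM in yCA, 13.5 CPM in SP, 11.4 CPM in HP, 14.1 CPM in dMSN 1 and 13.7 CPM in dMSN 2. A bulk library does not tell fewer receptor-bearing cells from less receptor RNA in each.

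**Figure D1:**
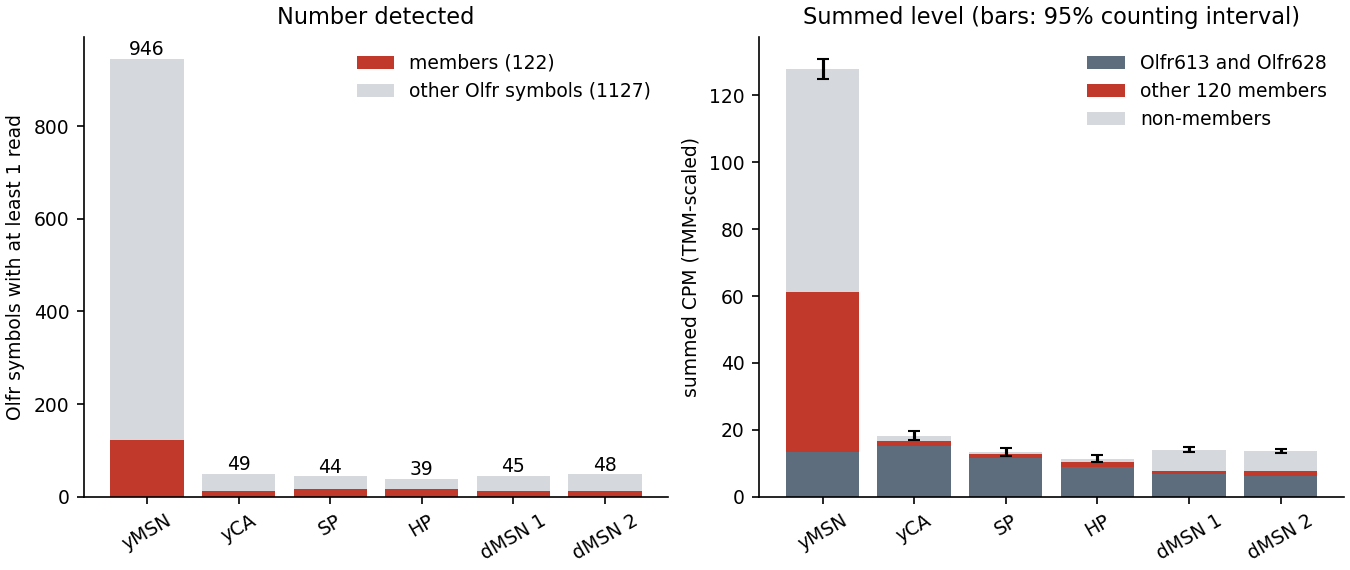
Left, Olfr symbols with at least 1 read per library, with the 122 members in red and the other 1127 symbols in grey. Right, summed CPM per library, split into Olfr613 and Olfr628, the other 120 members, and the non-members, with error bars for the 95% counting interval of the total. yMSN reached 946 symbols and 128 CPM, and no other library passed 49 symbols or 18.2 CPM.

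The members carried 2659 of the 5561 receptor reads of yMSN. Their summed level was 61.2 CPM in yMSN (exact 95% Poisson interval 58.9 to 63.6), against 16.8 CPM in yCA (15.5 to 18.1), 12.7 CPM in SP (11.6 to 13.8), 10.5 CPM in HP (9.49 to 11.7) and 7.63 ± 0.0850 CPM in dMSN (SD, n = 2). These intervals cover counting error only, and yMSN, yCA, SP and HP have no replicates. The ratio of the members' sum was 3.64 for yMSN over yCA, 4.82 over SP, 5.81 over HP and 8.02 over dMSN. Most of the sum outside yMSN lay in 2 genes, Olfr613 and Olfr628. Without them the members stood at 47.9 CPM in yMSN, against 1.64 CPM in yCA, 1.01 CPM in SP, 1.64 CPM in HP and 1.10 ± 0.305 CPM in dMSN (SD, n = 2). The ratios were then 29.1, with a counting interval of 22.7 to 37.9, over yCA, 47.6 (34.8 to 66.8) over SP, 29.3 (22.5 to 38.8) over HP and 43.5 (38.2 to 49.7) over dMSN. The yMSN reads chose the members, and the 2 genes were set aside after their values were seen. The intervals do not cover these choices, so all these ratios are a description.

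The 1127 Olfr symbols below the minimum of 10 reads were also highest in yMSN as a sum. They summed to 66.8 CPM in yMSN, against 1.39 CPM in yCA, 0.780 CPM in SP, 0.861 CPM in HP and 6.28 ± 0.181 CPM in dMSN (SD, n = 2). Of these symbols 824 had a read in yMSN, against 36 in yCA, 27 in SP, 22 in HP, 32 in dMSN 1 and 36 in dMSN 2. The minimum of 10 reads is not a natural break. Exactly 10 reads fell on 27 symbols, among them Olfr107, Olfr1178, Olfr12 and Olfr1260, and exactly 9 reads fell on 24 symbols, among them Olfr1016, Olfr1270, Olfr1321 and Olfr1357. Of these 8, Olfr12 alone had reads elsewhere, 2 in SP and 1 in HP.

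Most members had no read in the other libraries. Of the 122 members, 96 (78.7%) had 0 reads in yCA, SP, HP, dMSN 1 and dMSN 2 alike, and these 96 held 1465 reads in yMSN (55.1% of the members' reads), at most 38 for 1 gene. A read was found for 13 members in yCA (10.7%), 17 in SP (13.9%), 17 in HP (13.9%), 13 in dMSN 1 (10.7%) and 12 in dMSN 2 (9.84%). Among all 1249 Olfr symbols the shares with a read were 3.92% in yCA, 3.52% in SP, 3.12% in HP, 3.6% in dMSN 1 and 3.84% in dMSN 2. Olfr613, Olfr628, Olfr78, Olfr558 and Olfr1033 had a read in all 6 libraries. With each other library raised to a floor of 3 reads per gene, 118 of 122 members were at least 2-fold higher in yMSN than in yCA, beside 15.3% of the 17850 symbols with at least 10 reads in yMSN. The count was 119 over SP beside 28.9%, 118 over HP beside 30.5%, and 119 over the dMSN mean beside 33.7%. The share of all gene symbols without a read outside yMSN is not given here. Because the members were chosen on yMSN reads, nothing is read from these shares or from the 96 members without a read elsewhere. The members below 2-fold were Olfr613, Olfr628, Olfr543 and Olfr558 against yCA, Olfr613, Olfr628 and Olfr231 against SP, Olfr613, Olfr628, Olfr231 and Olfr543 against HP, and Olfr613, Olfr78 and Olfr464 against dMSN.

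Olfr613, a class I receptor gene, had the most reads of all Olfr symbols in every library. It had 382 reads in yMSN, 312 in yCA, 304 in SP, 217 in HP, 804 in dMSN 1 and 707 in dMSN 2. Its level was 8.79 CPM in yMSN, 8.02 CPM in yCA, 7.65 CPM in SP, 6.23 CPM in HP, 6.68 CPM in dMSN 1 and 6.10 CPM in dMSN 2. It was highest in yMSN, close behind in yCA and SP, and present at a like level throughout. Olfr628, another class I gene, had 196 reads in yMSN (4.51 CPM), 278 in yCA (7.15 CPM), 160 in SP (4.03 CPM), 93 in HP (2.67 CPM), 14 in dMSN 1 (0.116 CPM) and 17 in dMSN 2 (0.147 CPM). It was highest in yCA, and both dMSN libraries lay below the other 4. Together these 2 genes held 10.4% of the receptor reads of yMSN, against 83.3% in yCA, 86.7% in SP, 78.1% in HP, 48.2% in dMSN 1 and 45.5% in dMSN 2.

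The next members were high in yMSN and at or near 0 elsewhere. Olfr15, a class II gene, had 94 reads in yMSN, 0 in yCA, 1 in SP, 5 in HP and 0 in both dMSN libraries. Olfr536 had 89 reads in yMSN, 11 in yCA, 1 in SP and 0 in HP, dMSN 1 and dMSN 2. Olfr1372-ps1, annotated as a transcribed pseudogene, had 64 reads in yMSN, 3 each in yCA, SP and HP, and 0 in both dMSN libraries. All 3 belong to class II, and their yMSN counts lay well above those of every other library. Olfr309, Olfr745 and Olfr32 followed with 38, 36 and 35 reads in yMSN and 0 in every other library. Olfr222 had 34 reads in yMSN and 1 in HP. Of the 20 leading members, 8 were class I and 12 class II. As a description only, 11 of the 20 had no read outside yMSN. Besides Olfr309, Olfr745 and Olfr32 these were Olfr1006 with 33 reads in yMSN, Olfr523 and Olfr578 with 31 each, Olfr672 with 30, Olfr1370 and Olfr622 with 25 each, and Olfr24 and Olfr689 with 24 each. Olfr1033, also among the 20, had 26 reads in yMSN, 4 in yCA, 2 in SP, 3 in HP, 5 in dMSN 1 and 8 in dMSN 2.

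**Figure D2:**
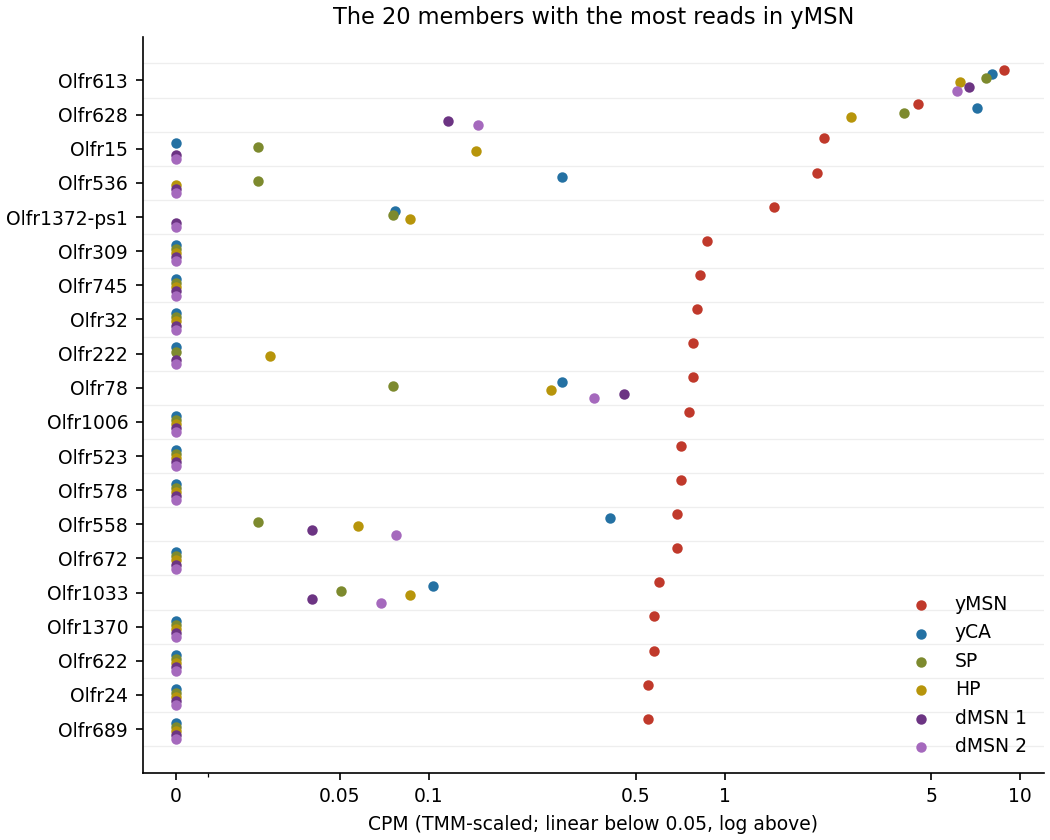
CPM of the 20 members with the most reads in yMSN, 1 row per gene and 1 point per library, on an axis that is linear below 0.05 CPM and logarithmic above. Olfr613 lay between 6.10 and 8.79 CPM in all 6 libraries, Olfr628 was lowest in dMSN, and most other genes had points above 0 in yMSN alone.

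A few members had reads in several libraries, among them receptors known from tissues other than the nose. Olfr78, a receptor for short-chain fatty acids described in kidney and blood vessels, had 34 reads in yMSN (0.782 CPM), 11 in yCA (0.283 CPM), 3 in SP (0.0755 CPM), 9 in HP (0.258 CPM), 55 in dMSN 1 (0.457 CPM) and 42 in dMSN 2 (0.362 CPM). Olfr558, of the same MOR family 18, had 30 reads in yMSN, 16 in yCA, 1 in SP, 2 in HP, 5 in dMSN 1 and 9 in dMSN 2. Both were highest in yMSN in CPM and had some reads in every other library. The other members with at least 10 reads outside yMSN were Olfr31, Olfr231, Olfr464, Olfr536, Olfr543 and Olfr550. Olfr31 had 14 reads in yMSN, 1 in yCA, 12 in dMSN 1 and 10 in dMSN 2, and Olfr550 had 23 in yMSN, 5 in dMSN 1 and 11 in dMSN 2, with 0 reads in the remaining libraries. Unlike the 96 above, these members by definition had reads in at least 1 other library. Olfr464 had 10 reads in yMSN and 1 in yCA, against 17 in dMSN 1 and 60 in dMSN 2. Olfr231 had 10 reads in yMSN, 6 in SP and 12 in HP, and 0 in yCA and dMSN. Olfr543 had 23 reads in yMSN, 11 in yCA, 9 in SP, 10 in HP, 1 in dMSN 1 and 0 in dMSN 2.

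Several receptors that have served as models of receptor choice were present at low counts in yMSN, and they were picked by name after the values were seen. Olfr1507, also called MOR28, had 17 reads in yMSN, 2 in yCA, 0 in SP, 1 in HP, 1 in dMSN 1 and 2 in dMSN 2. Olfr17, also called P2, had 17 reads in yMSN and 0 in the other 5 libraries. Below the minimum of 10 reads, Olfr151 (M71) had 3 reads, Olfr2 (I7) 2 reads and Olfr16 (MOR23) 7 reads in yMSN, and none of these 3 had a read elsewhere. Olfr545 (S50) had 4 reads in yMSN, 2 in HP, 2 in dMSN 2 and 0 in yCA, SP and dMSN 1.

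Sequences at the annotated starts of members are shown because homeodomain and Ebf-type motifs are known from receptor promoters. They are RefSeq windows on GRCm38.p6, not the build of the counts, from 250 bases before the annotated start to 50 bases after it. The first 3 belong to the 3 leading members, and Olfr745 and Olfr99 were added after the search because their windows hold a match. Capitals mark matches on either strand to the Ebf-type motif (TCCC, any 2 bases, GGGA) or the homeodomain motifs TAATTA and TAATGA.
Olfr613, chr7:103550118-103550417, plus strand: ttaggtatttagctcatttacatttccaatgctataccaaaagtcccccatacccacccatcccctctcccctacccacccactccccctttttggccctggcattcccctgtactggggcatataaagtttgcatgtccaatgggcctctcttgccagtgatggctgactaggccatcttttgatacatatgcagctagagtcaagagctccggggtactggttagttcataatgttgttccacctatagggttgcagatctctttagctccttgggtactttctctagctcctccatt
Olfr628, chr7:103731678-103731977, plus strand: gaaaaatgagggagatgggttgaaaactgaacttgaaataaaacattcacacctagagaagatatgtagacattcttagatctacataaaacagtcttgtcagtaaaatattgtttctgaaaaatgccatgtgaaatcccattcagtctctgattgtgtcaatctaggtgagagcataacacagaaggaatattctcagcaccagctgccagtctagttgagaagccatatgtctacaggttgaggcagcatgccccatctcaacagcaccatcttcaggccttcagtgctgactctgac
Olfr15, chr16:3838725-3839024, plus strand: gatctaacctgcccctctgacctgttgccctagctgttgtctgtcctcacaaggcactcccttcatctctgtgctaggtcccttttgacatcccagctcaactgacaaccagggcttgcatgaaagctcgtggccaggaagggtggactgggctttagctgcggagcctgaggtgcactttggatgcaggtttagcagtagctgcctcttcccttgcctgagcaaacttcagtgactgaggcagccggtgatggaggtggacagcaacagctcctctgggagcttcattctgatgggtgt
Olfr745, chr14:50641945-50642244, plus strand: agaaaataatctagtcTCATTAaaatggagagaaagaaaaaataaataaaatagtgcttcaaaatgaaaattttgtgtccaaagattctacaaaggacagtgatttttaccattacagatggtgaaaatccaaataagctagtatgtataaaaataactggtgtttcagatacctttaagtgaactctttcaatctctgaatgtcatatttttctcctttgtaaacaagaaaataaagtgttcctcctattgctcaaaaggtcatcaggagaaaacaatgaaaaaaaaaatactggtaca
Olfr99, chr17:37280369-37280668, minus strand: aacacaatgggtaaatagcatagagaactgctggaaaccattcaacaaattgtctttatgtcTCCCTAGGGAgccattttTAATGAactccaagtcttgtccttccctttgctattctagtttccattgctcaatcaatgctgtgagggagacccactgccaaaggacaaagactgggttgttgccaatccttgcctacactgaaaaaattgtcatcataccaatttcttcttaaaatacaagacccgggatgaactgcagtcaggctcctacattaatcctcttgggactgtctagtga
No match lay in the windows of Olfr613, Olfr628 and Olfr15. The window of Olfr745 held TAATGA on the reverse strand at position -234, and that of Olfr99 held the Ebf-type motif at -188 and TAATGA at -170, counted from 0 at the annotated start. Olfr745 had 36 reads in yMSN and none elsewhere, and Olfr99 had 14 reads in yMSN, 4 and 6 in the dMSN libraries and 0 in yCA, SP and HP.

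A window was found for 95 of the 122 members. TAATTA or TAATGA was present in 37 of the 95 member windows (38.9%), against 41.4% of 834 windows of other Olfr symbols and 13.9% of 32851 windows of all genes. The Ebf-type motif was present in 2 member windows (2.11%), which belong to Olfr96 and Olfr99, against 0.360% of other Olfr windows and 0.904% of all windows. In no member window did TAATTA and TAATGA overlap. Members and other Olfr genes thus held the homeodomain letters at similar shares. In 61 of the 95 member windows (64.2%) the annotated start is the ATG of the coding sequence, against 5.83% of all windows, so most of these windows lie upstream of a start codon and may not hold the site where transcription starts. A match is a description of letters and not a binding site.

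Reads were spread widely over the members. The median member had 14 reads in yMSN (0.322 CPM), with quartiles of 11 and 18 and extremes of 10 and 382. Reads of 10 to 12 fell on 47 members, 13 to 19 on another 47, 20 to 29 on 13, 30 to 39 on 10, 40 to 99 on 3 and above 100 on 2. The 10 leading members took 37.7% of the members' reads (exact 95% interval 35.8 to 39.6, counting error only), and 23.5% once Olfr613 and Olfr628 were set aside. The effective number of receptors, the exponential of the Shannon entropy of the reads, is the number of equally abundant genes that would give the same spread. It was 72.1 for the 122 members and 101 for the 120 without the 2 leading genes.

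Over the whole family, the effective number was 462 in yMSN, against 4.88 in yCA, 4.11 in SP, 5.50 in HP, 5.18 in dMSN 1 and 6.30 in dMSN 2. Without Olfr613 and Olfr628 it was 602 in yMSN, against 28.5 in yCA, 32.6 in SP, 24.6 in HP, 5.81 in dMSN 1 and 7.54 in dMSN 2. With all symbols, the yMSN value rests on 5561 receptor reads and those of yCA, SP and HP on 708, 535 and 397. Olfr613 and Olfr628 held 578 of these reads in yMSN, 590 in yCA, 464 in SP and 310 in HP. The values without them rest on the reads that remain, which are few in yCA, SP and HP. Fewer reads can reach fewer genes, which limits the effective number in these libraries. The spread in yMSN was wide but not even. Its mean was 4.45 reads per symbol and its median 2, with 303 symbols at 0 reads, 179 at 1 and 181 at 2. An even spread of the same reads would leave 14.6 symbols at 0. The variance was 9.94 times the mean without the 2 leading genes, where counting error alone gives a ratio of 1.

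**Figure D3:**
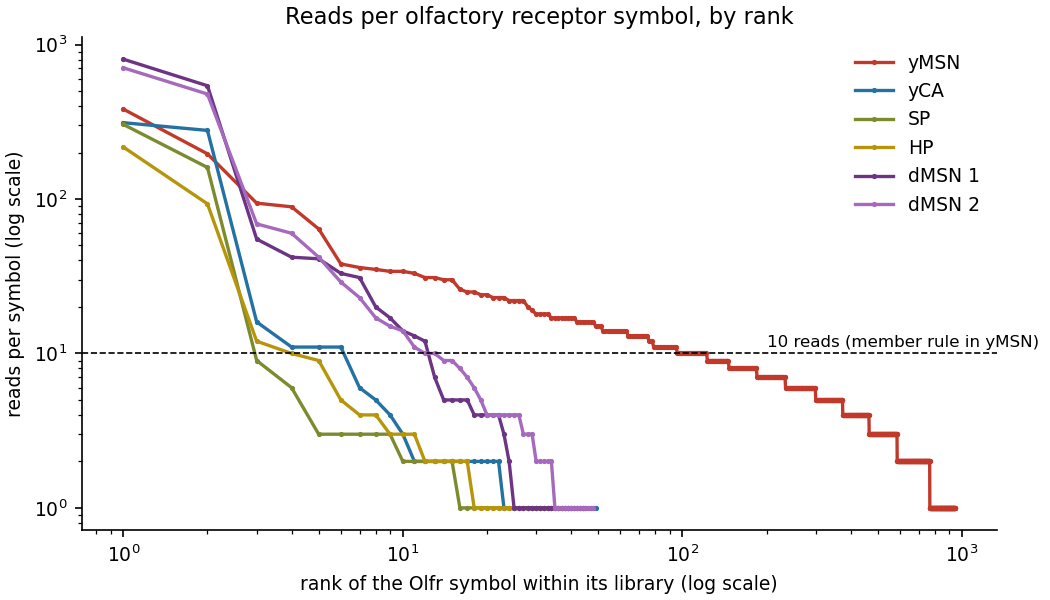
Reads per Olfr symbol against its rank within each library, both on log scales, with 1 line per library and a dashed line at the 10 reads of the member rule. The yMSN line stays at or above 10 reads through 122 symbols, while the other libraries drop below it within 13 symbols.

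Levels of different genes can be compared only per length. RefSeq gives 85 of 121 matched members a gene span under 1100 bases, between 827 and 1096, close to a receptor's single coding exon. On this scale Olfr628 led with 206 reads per kilobase of gene span in yMSN, ahead of Olfr15 at 100, Olfr309 at 41.0 and Olfr222 at 35.5, and the median was 13.8. The other 36 matched members, Olfr613 and Olfr536 among them, have longer spans, which may include introns, and were not ranked per length. Of the members, 8 overlap another annotated gene, such as Olfr78 with Olfr560 and Olfr32 with Olfr1270. Since no strand setting is stated, their reads cannot be told apart from those of the overlapping gene. Reads that align to several receptors are left out of the counts, so members with near-identical copies may be undercounted.

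Both receptor classes were present. The class was taken from MOR family numbers among the RefSeq synonyms, with numbers below 100 as class I. Class I genes were 24 of the 122 members (19.7%), against 144 of all 1249 Olfr symbols (11.5%), and class II genes were 96 members (78.7%), against 1045 of all symbols (83.7%). At least 1 read in yMSN fell on 79.2% of class I and 76.9% of class II symbols, with medians of 3 and 2 reads. In reads, class I held 37.4% of the members' total, and 20% without Olfr613 and Olfr628, both of class I. Members with no read outside yMSN were 15 of the 24 in class I (62.5%) and 79 of the 96 in class II (82.3%). The yMSN reads chose the members and the share over all gene symbols is not given, so nothing is read from these shares. The class II sum of the members was 37.6 CPM in yMSN, against 0.565 CPM in yCA, 0.604 CPM in SP, 0.947 CPM in HP, 0.332 CPM in dMSN 1 and 0.777 CPM in dMSN 2. The 3 leading class I members were Olfr613, Olfr628 and Olfr78.

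The members came from 77 MOR families. The largest group was family 256, with 10 members of its 52 symbols, among them Olfr15, Olfr1372-ps1, Olfr222 and Olfr1370. Family 267 had 5 members of 15 symbols, and family 274 had all 3 of its 3 symbols. Pseudogenes by RefSeq biotype were 6 of the 122 members (4.92%), against 144 of all 1249 Olfr symbols (11.5%). A read in yMSN was found for 42.4% of these pseudogenes, with a median of 0 reads, and for 80.1% of the 1087 protein-coding Olfr symbols, with a median of 3.

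Receptor genes lie in runs along the chromosomes, and nearly every run was represented. With at most 5 other genes allowed between neighbours, the 1231 placed Olfr symbols formed 70 runs, of which 65 had a read in yMSN and 38 held a member. All 24 runs of at least 10 symbols had reads, on 43.2% to 89.5% of their symbols, and 20 of them held a member. The longest, from Olfr987 to Olfr1273-ps, had 263 symbols, of which 191 had a read and 16 were members. The class I run from Olfr543 to Olfr67 had 83 symbols, with 64 detected and 12 members, and held both Olfr613 and Olfr628. The run from Olfr1423 to Olfr1441 had the highest share of members among the 24, at 31.2% (5 of 16). Detection was therefore not confined to a few genomic positions.

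**Figure D4:**
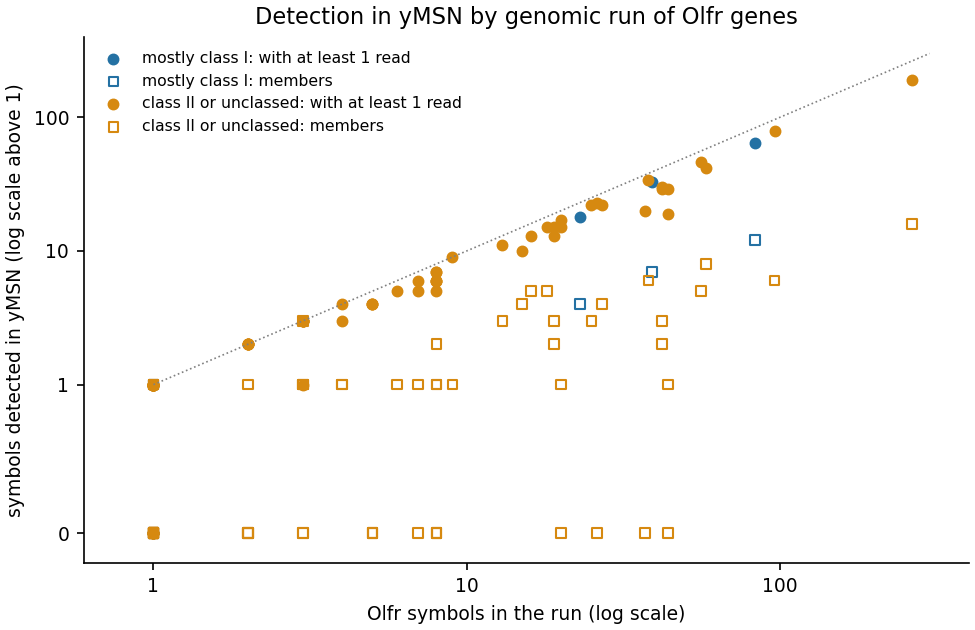
For each of the 70 genomic runs of Olfr genes, the number of symbols in the run against the number with at least 1 read in yMSN (filled circles) and the number of members (open squares), with runs of mostly class I genes in blue and all others in orange. The dotted line marks full detection. The 24 runs of at least 10 symbols had 43.2% to 89.5% of their symbols detected.

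Genes of olfactory sensory neurons accompanied the receptors. Omp, the olfactory marker protein of mature sensory neurons, stood at 42.9 CPM in yMSN, against 0.283 CPM in yCA, 0.252 CPM in SP, 0.115 CPM in HP, 1.27 CPM in dMSN 1 and 0.397 CPM in dMSN 2. Rtp1 and Rtp2, which bring receptors to the cell surface, stood at 37.6 and 20.2 CPM in yMSN, and at or below 0.374 CPM in each of the other 5 libraries. Cnga2, a subunit of the transduction channel, stood at 13.7 CPM in yMSN and at most 0.231 CPM elsewhere. Of the 13 measured genes of the mature sensory neuron list, 8 were highest in yMSN. The list's sum was 380 CPM in yMSN, against 244 CPM in yCA, 67.5 CPM in SP, 65.5 CPM in HP, 581 CPM in dMSN 1 and 579 CPM in dMSN 2, and it includes genes that striatal neurons express too. Gnal, the G protein subunit that couples receptors in the nose and dopamine receptors in the striatum, stood at 145 CPM in yMSN and 389 ± 2.83 CPM in dMSN (SD, n = 2). No gene of the list was at 0 in any library.

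Genes of other cells and zones of the olfactory mucosa also had reads in yMSN. Acsm4, a marker of the dorsal zone of the epithelium, stood at 39.4 CPM in yMSN, against 0.0257 CPM in yCA, 0.529 CPM in SP, 0.775 CPM in HP and 0.106 ± 0.00318 CPM in dMSN (SD, n = 2). Cyp2g1, an enzyme of supporting and gland cells, stood at 49.4 CPM in yMSN and at most 0.147 CPM elsewhere. Atf5, a transcription factor of the feedback that follows receptor choice, stood at 265 CPM in yMSN, against 26.6 to 38.4 CPM in the other 5 libraries. Among the 13 genes of receptor gene regulation 4 were highest in yMSN, Atf5 among them. Eif2ak3 and Ddit3 of the same list were not. Eif2ak3 stood at 37.5 CPM in yMSN and 39.6 CPM in yCA. Ddit3 stood at 16.7 CPM in yMSN, against 78.6 CPM in dMSN 1 and 60.2 CPM in dMSN 2. The level of Atf5 therefore does not stand for the list. Lhx2, a homeodomain factor required for class II receptors, stood at 107 CPM in yMSN, 121 CPM in yCA, 83.6 CPM in SP, 137 CPM in HP and 59.8 ± 9.85 CPM in dMSN (SD, n = 2). The immature sensory neuron list, whose genes are shared with young brain neurons, summed to 1990 CPM in yMSN, against 3180 CPM in yCA and 288 to 1010 CPM in the others. The olfactory progenitor list summed to 142 CPM both in yMSN and in yCA, and to 32.1 to 160 CPM in the others. The sustentacular and gland cell list, of which 5 of 6 genes were measured, summed to 137 CPM in yMSN, against 15.4 CPM in yCA, 0.352 CPM in SP, 0.258 CPM in HP, 4.60 CPM in dMSN 1 and 5.59 CPM in dMSN 2. Cyp2f2 alone held 15.2 CPM of the yCA sum. Cyp2a5 alone held 3.98 CPM of the dMSN 1 sum and 4.78 CPM of the dMSN 2 sum. The 4 zone markers summed to 294 CPM in yMSN, against 218 CPM in yCA, 107 CPM in SP and 116 CPM in HP. In dMSN 1 and dMSN 2 the sum was 35.6 and 39.4 CPM. Nrp2 alone held 226 CPM of the yMSN sum and 197 CPM of the yCA sum, so the sum does not follow Acsm4. Of the 4 markers 3 were highest in yMSN, but Ncam2 was lower there, at 14.5 CPM, than in yCA, at 18.7 CPM. Nqo1 differed little between yMSN, at 14.7 CPM, and dMSN, at 11.3 ± 0.0589 CPM (SD, n = 2). The part of nasal tissue in the receptor levels was not tested.

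**Figure D5:**
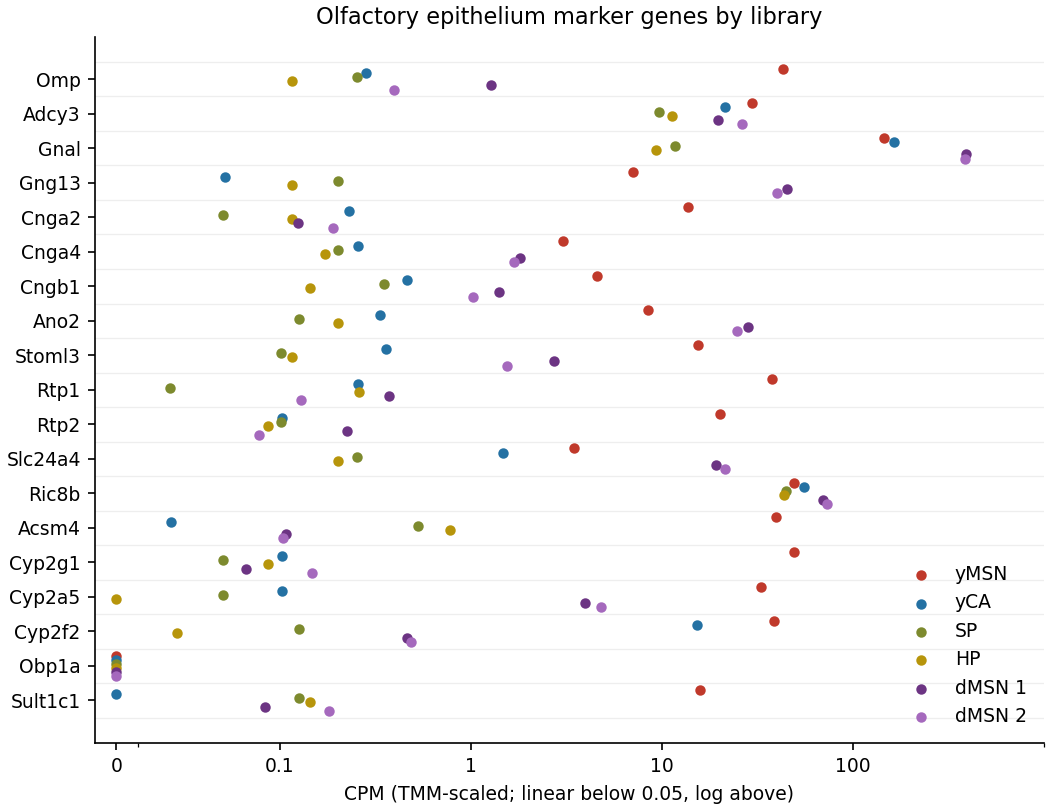
CPM of the 13 mature olfactory sensory neuron genes, the dorsal zone marker Acsm4 and the 5 measured genes of supporting and gland cells, 1 row per gene and 1 point per library, on an axis that is linear below 0.05 CPM and logarithmic above. Omp, Rtp1, Rtp2, Cnga2, Acsm4 and Cyp2g1 were far higher in yMSN than elsewhere, while Gnal, Gng13 and Ano2 were highest in dMSN and Obp1a was at 0 in all 6 libraries.

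The trace amine-associated receptors, a separate receptor family of the nose, followed the Olfr genes. In yMSN 11 of 16 Taar symbols had a read, 63 reads in all. Outside yMSN the family had 0 reads in yCA, SP, dMSN 1 and dMSN 2 and 1 read in HP, which was Taar9. Taar5 and Taar7d had 11 reads each in yMSN, Taar4 had 9 and Taar7e had 8. Gucy2d, of a small set of sensory neurons with a guanylate cyclase, had 24 reads in yMSN, 3 in yCA, 2 in dMSN 2 and 0 in SP, HP and dMSN 1.

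The vomeronasal receptors, which belong to a separate sense organ, did not show the same contrast in level. Vmn1r symbols summed to 11.4 CPM in yMSN, against 11.4 CPM in yCA, 9.34 CPM in SP, 8.64 CPM in HP, 4.01 CPM in dMSN 1 and 3.40 CPM in dMSN 2, and 3 genes led by Vmn1r58 held most of these reads. A read fell on 41 of 286 Vmn1r symbols in yMSN, against 9 to 14 in the other libraries, and on 46 of 211 Vmn2r symbols in yMSN, against 9 to 16 elsewhere. Trpc2, the channel of vomeronasal neurons, stood at 40.4 CPM in yMSN, 39.1 CPM in yCA, 58.8 CPM in SP, 58.1 CPM in HP, 20.3 CPM in dMSN 1 and 18.9 CPM in dMSN 2. Ms4a genes, which include receptors of guanylate cyclase neurons, summed to 12 CPM in yMSN and 3.75 to 7.53 CPM elsewhere, and the 4 Fpr-rs symbols had 0 reads in all 6 libraries. Tas1r taste receptors summed to 5.11 CPM in yMSN and 1.78 to 4.75 CPM elsewhere, and Tas2r symbols had at most 6 reads in any library.

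Omp was also present in dMSN without the broad receptor set. Its reads numbered 153 in dMSN 1 and 46 in dMSN 2, against 1862 in yMSN. The 120 members without Olfr613 and Olfr628 had 107 reads in dMSN 1 and 153 in dMSN 2, against 2081 in yMSN. All Olfr symbols together had 1696 reads in dMSN 1 and 1590 in dMSN 2, against 5561 in yMSN. The reads of the 120 members fell on 11 genes in dMSN 1, led by Olfr78, and on 10 genes in dMSN 2, led by Olfr464.

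Among the non-members, Olfr287 stood out in dMSN. This gene, which is no member, had 5 reads in yMSN, 0 in yCA, 1 in SP, 0 in HP, 541 in dMSN 1 and 478 in dMSN 2. Its level of 4.50 CPM in dMSN 1 and 4.12 CPM in dMSN 2 made up most of the non-members' sum there. Another 6 non-members had at least 10 reads outside yMSN, in dMSN in each case, and those with the highest levels were Olfr1393, Olfr212, Olfr288, Olfr570 and Olfr316. The dMSN libraries are deeper, and in CPM some of these were at a like level in yMSN. Olfr212 stood at 0.349 and 0.198 CPM in dMSN 1 and dMSN 2 and 0.207 CPM in yMSN, and Olfr570 at 0.258 and 0.129 CPM in dMSN 1 and dMSN 2 and 0.207 CPM in yMSN. Olfr288, next to Olfr287 in the RefSeq gene order, had 41 reads in dMSN 1 and 29 in dMSN 2, against 2 in yMSN.

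A test independent of yMSN compared dMSN 1 and dMSN 2 with the precursors SP and HP. It used edgeR's quasi-likelihood test with Benjamini-Hochberg adjustment over 18761 genes, fitted without yMSN and with 2 residual degrees of freedom. The SE given below is the size of the log2 change divided by the square root of the test's F statistic. It is not a fitted standard error. Only 7 of the 122 members had enough reads in these libraries to be tested, and 4 passed at an adjusted p of 0.05, 1 higher and 3 lower in dMSN. This is beside 79.0% of all genes tested, so the members' share is not above the background. Whether a member was tested depends on its reads in these libraries, so the 7 do not stand for the 122. Among those that passed, Olfr231 and Olfr464 entered the test only through the group where each was high. SP and HP are different regions, and nothing states that the libraries of a group came from separate animals, so the p-values measure only the spread between these libraries.

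Olfr628 was lower in dMSN, with 14 and 17 reads in dMSN 1 and dMSN 2, against 160 in SP and 93 in HP (log2 change -4.66, SE 0.373, adjusted p = 7.8e-05). Olfr543 had 1 read in dMSN 1 and 0 in dMSN 2, against 9 in SP and 10 in HP (log2 change -5.42, SE 0.982, adjusted p = 0.0028), a ratio of summed CPM of 0.0498 with a counting interval of 0.000400 to 0.105. Olfr231 had 0 reads in both dMSN libraries, against 6 in SP and 12 in HP (adjusted p = 0.0059), and with a floor of 3 reads over the dMSN pair it was at least 19-fold lower in dMSN. Olfr464 had 17 and 60 reads in dMSN 1 and dMSN 2, against 0 in both precursors (adjusted p = 0.021). With the same floor over the precursors, the ratio of dMSN over precursors was 8.10, and most of the dMSN reads were from dMSN 2. Olfr464 could not be tested without dMSN 2, nor Olfr231 without HP or without SP. Each of these genes passed the filter only through the group where it was high, which favoured its direction in advance. Their adjusted p-values are therefore a description and no support for a change.

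Olfr613, Olfr78 and Olfr558 did not pass. For Olfr613 the summed ratio of dMSN over precursors was 0.916, with a counting interval of 0.828 to 1.01 (log2 change -0.12, SE 0.207, adjusted p = 0.61), and the sign turned to 0.02 without SP. For Olfr78 the log2 change was 1.32 (SE 0.643, adjusted p = 0.10), and it passed only when HP was left out (adjusted p = 0.047). Olfr558 had a log2 change of 0.54 (SE 0.965, adjusted p = 0.62).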

How the data were processed

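Each RNA library has a deposited table of unnormalised read counts for 34620 gene symbols, closed by 5 summary lines. Per the submitters' processing notes, TopHat2 2.0.2, TopHat, Bowtie 1.0.0 and HTSeq and the builds mm9 and NCBIM37 were used for the series, with no role given. A strand setting is not given in the sources used here. Those lines show reads outside any gene (5.34% to 9.81%), ambiguous reads (1.38% to 2.01%) and reads with several alignments (17.3% to 27.3%). None of them is in the counts, which lowers genes with near-identical copies.

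The test was run with edgeR 4.0.16 under R 4.3.3, and levels were described with Python 3.11.15, pandas 2.3.3 and scipy 1.17.1. CPM values use TMM factors between 0.790 in dMSN 1 and 1.18 in yMSN, computed on genes kept by filterByExpr. The members are symbols starting with Olfr and a digit with at least 10 reads in yMSN. The members and gene lists were chosen with earlier results of these data known. The test of dMSN against precursors left yMSN out and was fitted to 5 libraries, with 1 mean each for dMSN, precursors and yCA, adjusted over all genes tested at 0.05. Its code was also run on simulated counts in which few genes changed. That run checks the code only, since most genes passed in the real data. DESeq2 1.42.0, other scaling, filters, count minimums and left-out libraries were the alternatives.

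Genes were named by rule: the 20 members with the most yMSN reads, the 3 leading class I members, members with at least 10 reads elsewhere, up to 4 names at each side of the minimum, up to 6 non-members with at least 10 reads elsewhere, and genes of the lists. Known receptors, Olfr96, Olfr99, sex-linked genes and single Taar and Vmn1r genes were chosen after their values were seen. So were the split without Olfr613 and Olfr628, the limit of 1100 bases on gene span, the definition of runs, and leaving symbols with MOR numbers of both classes unclassed. Of 1249 Olfr symbols, 1231 matched RefSeq names of GRCm38.p6, whose positions gave the gene order, spans and overlaps.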

Additional observations from a re-analysis of the deposited data

Results flagged for a closer look

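The stage difference had opposite signs in the striatal and the hippocampal pair for 3 of the members named above, counting those with more than 3 reads in at least 1 library of each pair, a limit set after the data had been seen. For Olfr15, yMSN minus SP was 2.14 CPM and yCA minus HP was -0.144 CPM. For Olfr231 the differences were 0.0791 CPM for yMSN minus SP and -0.345 CPM for yCA minus HP. For Olfr543 they were 0.303 CPM for yMSN minus SP and -0.00436 CPM for yCA minus HP. The smaller differences rest on few reads. Olfr15 had 0 in yCA and 5 in HP, Olfr231 had 10 in yMSN and 6 in SP, and Olfr543 had 11 in yCA and 10 in HP. For Olfr231 and Olfr543 a difference of this size lies within counting error, so the sign is not settled. The difference between the pairs was not tested, and each pair is 1 library against 1. The yMSN reads chose these genes, which favours a positive difference of yMSN minus SP. The share of all genes with opposite signs is not given, so nothing is read from the count of 3.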

How the results depend on the processing

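The alternative without Olfr613 and Olfr628 was chosen after the data had been seen. It gave the members' sum as 47.9 CPM in yMSN, 1.64 in yCA, 1.01 in SP, 1.64 in HP, 0.889 in dMSN 1 and 1.32 in dMSN 2. It gave ratios of yMSN of 29.1 over yCA, 47.6 over SP, 29.3 over HP and 43.5 over dMSN, a share of 23.5% in the 10 leading members and 20% of reads in class I. With the plain library total the sum was 71.9 CPM in yMSN, 18.5 in yCA, 14.0 in SP, 11.7 in HP, 6.07 in dMSN 1 and 6.02 in dMSN 2, and the ratio of yMSN over dMSN was 11.9. With RLE size factors it was 57.5 CPM in yMSN, with ratios of 4.29 over SP and 5.12 over HP, and without pseudogene symbols it was 57.6 CPM in yMSN. Over all Olfr symbols it was 128 CPM in yMSN, 18.2 in yCA, 14.1 in dMSN 1 and 13.7 in dMSN 2, with an effective number of 462 and 18.0% in the 10 leading genes. A minimum of 5 reads gave 374 members, an effective number of 224, 23.3% in the 10 leading members and 28.4% of reads in class I. A minimum of 20 reads gave 28 members, an effective number of 16.8, 68.7% in the leading 10, and 39.3% of members and 56.1% of reads in class I. A minimum of 50 reads gave 5 members, an effective number of 3.99, 100% in the leading members, and 40% of members and 70.1% of reads in class I. Per kilobase, the leading 10 of the 85 members with a short span held 34.8%. In each alternative for the sum, yMSN stayed above the other libraries. For the members' sum this order was favoured in advance, since the yMSN reads chose the members, so it is no measure of robustness.

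In the test of dMSN against precursors, no filter gave 8 members called of 26 tested, beside 15526 of 25795 genes, by construction more genes tested. RLE scaling gave 7584 genes higher and 7244 lower in dMSN, against 8054 and 6774 with TMM, and set the median over all genes at 0.05 on the log2 scale, against 0.20. Leaving out 1 library in turn gave 13449 to 15088 genes and 3 to 4 members past the threshold, and leaving out 1 dMSN library gave ratios of yMSN over dMSN of 7.96 to 8.09. Leaving out yCA was added after the data had been seen. No paired analysis was possible because the groups compared share fewer than 2 replicate numbers. With 1 library each, yMSN, yCA, SP and HP allow no error beyond counting, and a gene at 0 reads was not detectable at this depth rather than absent.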
